A study of Mus musculus with 27 samples.

Results

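The EphA receptors were followed here through the brain of mice that lack an enhancer near Igf2. The 9 EphA genes of the mouse (Epha1 to Epha8 and Epha10) were taken by symbol from the 52636 gene identifiers of the RNA-sequencing count tables, and each had a row. The family was selected on the frontal cortex level of Epha8, which was already known from these libraries to be lower in Igf2enh-/- mice. That difference is therefore given as a description, with no test, and the tests concern the other receptors, the other brain region and the comparison of regions. Wild-type mice and homozygous Igf2enh-/- mice, all of the 129S1 background and about 2.5 months old, gave 27 libraries. The mutants carry a germline deletion of 4.9 kb between H19 and Igf2 on chromosome 7 (positions 149796331 to 149801250 in mm9), made in embryonic stem cells, with a loxP site left behind after the selection cassette was removed by crossing to an Hprt-CRE female. Frontal cortex was sampled in 6 mice per genotype, with 3 of each sex. Striatal RNA represented 7 wild-type animals (3 female, 4 male) and 8 Igf2enh-/- animals (4 female, 4 male). Whether a mouse gave tissue of both regions is not stated in the labels. Libraries are named by the number that opens their label.

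Eph receptors are the largest family of receptor tyrosine kinases, and they signal when cells touch. EphA receptors mostly bind ephrin-A ligands, which are tethered to the membrane by a lipid anchor, and EphB receptors mostly bind ephrin-B ligands, which span the membrane. In the developing brain they steer axons and set up topographic maps, and in the adult they act at dendritic spines and between neurons and astrocytes.

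Totals ran from 23686945 to 33926904 counts per library. Igf2 itself, the gene beside the deletion, had a mean of 72.8 ± 19.1 CPM (SD, n = 6) in wild-type and 123 ± 27.7 CPM (SD, n = 6) in Igf2enh-/- frontal cortex, and all 8 Igf2enh-/- striatal libraries lay above every wild-type striatal library. CPM are read counts divided by library size, set to a common scale by the trimmed mean of M-values (TMM). The summed level of 10 medium spiny neuron markers, the principal neurons of the striatum, was 3800 to 10600 CPM in striatum and 178 to 260 CPM in frontal cortex. The summed level of 12 cortical projection neuron markers was 2850 to 3220 CPM in frontal cortex and 461 to 1680 CPM in striatum, with the highest striatal value in library 20. Library 15, an Igf2enh-/- striatum, stood apart with 4620 CPM of 10 choroid plexus markers against at most 368 CPM in any other library. The deletion is present in all cells of these mice, and in whole tissue fewer cells of a type and less RNA per cell cannot be told apart.

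Epha8 encodes a receptor for ephrin-A ligands that has been studied in the guidance of midbrain axons. In GRCm38 its gene lies on the minus strand at chr4:136929419-136956859, away from the deletion on chromosome 7. The 207 bases that run up to the annotated gene (chr4:136956860-136957066, minus strand, from RefSeq on GRCm38.p6) are shown because Epha8 is the receptor on which the comparison turns, with the letters CACGTG in capitals.

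Epha8 upstream sequence: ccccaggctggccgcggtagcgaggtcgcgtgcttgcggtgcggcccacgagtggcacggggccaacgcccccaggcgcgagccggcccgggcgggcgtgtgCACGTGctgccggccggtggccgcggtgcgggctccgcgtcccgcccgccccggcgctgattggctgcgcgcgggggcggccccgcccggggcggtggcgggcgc

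The capitals were chosen after the sequence was read, and they read the same on both strands. In the 250 bases before each RefSeq start they were present in 1 of the 10 EphA windows, that of Epha8, and in 6.02% of all 32851 windows. The Epha8 window was the richest of the family in G and C at 84.0% (46 CpG), against 54.4% to 69.2% in the other EphA windows and a median of 52.4% over all windows. A match of letters describes this window and nothing more.

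Levels per transcript length placed Epha4 far above the rest of the family. In RPKM (CPM per kilobase of exon), Epha4, a receptor that binds both ephrin classes, had a mean of 44.6 ± 2.64 RPKM (SD, n = 12) in frontal cortex and 45.8 ± 5.82 RPKM (SD, n = 15) in striatum. In frontal cortex the order went on with Epha5 at 15.1 ± 1.19 RPKM, Epha7 at 9.17 ± 1.02 RPKM and Epha10, whose kinase domain lacks activity, at 7.43 ± 0.646 RPKM. Epha3 followed at 3.13 ± 0.345 RPKM and Epha6 was lower at 1.35 ± 0.176 RPKM. The rank of Epha8 there depended on genotype. In wild-type frontal cortex it had 3.02 ± 0.55 RPKM, next to Epha3 at 3.09 ± 0.306 RPKM (SD, n = 6 each) and within the same spread, and in Igf2enh-/- frontal cortex it had 1.74 ± 0.217 RPKM against 3.17 ± 0.406 RPKM for Epha3 (SD, n = 6 each). In striatum Epha7 (9.02 ± 0.868 RPKM) and Epha5 (7.99 ± 2.16 RPKM) lay within their spread of each other, and Epha8 stood next at 5.46 ± 0.936 RPKM (6.13 ± 0.923 in wild-type, n = 7, and 4.88 ± 0.435 in Igf2enh-/- libraries, n = 8), ahead of Epha10 at 3.8 ± 1.01 RPKM, Epha6 at 1.98 ± 0.297 RPKM and Epha3 at 1.18 ± 0.315 RPKM. Epha2, best known from epithelia, had 0.216 ± 0.0663 RPKM in frontal cortex and 0.239 ± 0.0487 RPKM in striatum. Epha1 was last, with 0.0274 ± 0.0181 RPKM in frontal cortex and 0.0597 ± 0.02 RPKM in striatum, and with at most 9 reads in any library. As a share of the summed EphA level in RPKM, Epha4 took 54.4% ± 0.422 (SD, n = 6) in wild-type frontal cortex and 59.2% ± 6.01 (SD, n = 7) in wild-type striatum. Epha8 took 3.61% ± 0.807 (SD, n = 6) and 8.13% ± 0.842 (SD, n = 7) in the same groups. In Igf2enh-/- mice the Epha8 share was 2.11% ± 0.254 (SD, n = 6) in frontal cortex and 6.43% ± 0.566 (SD, n = 8) in striatum. The summed EphA level was 84.2 ± 4.38 RPKM (SD, n = 6) in wild-type and 82.6 ± 3.08 RPKM (SD, n = 6) in Igf2enh-/- frontal cortex, and 75.1 ± 5.44 RPKM (SD, n = 7) and 75.9 ± 3.56 RPKM (SD, n = 8) in striatum. Differences of level between receptors rest on exon lengths from an annotation of an older mouse build, which fix the order but not the comparison of groups.

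**Figure D1:**
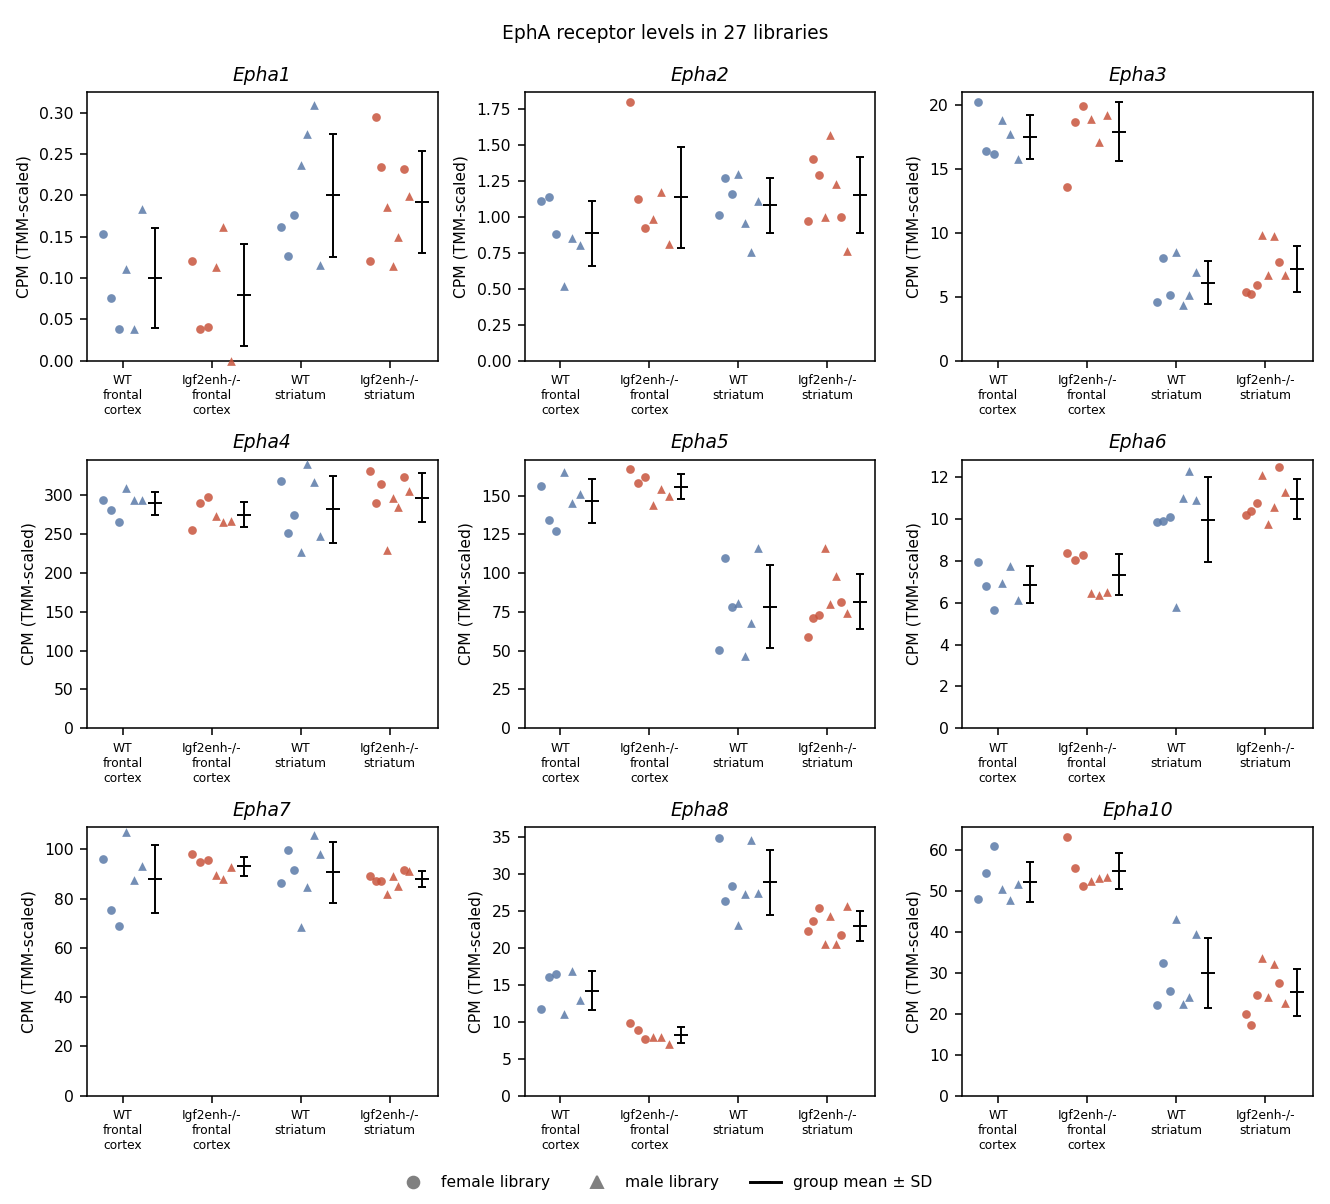
CPM of each EphA receptor (linear axis from 0, one panel per gene) in the 27 libraries, by genotype and region, with females as circles, males as triangles and the group mean ± SD as a black bar. Epha8 in Igf2enh-/- frontal cortex (6.94 to 9.83 CPM) lies below every wild-type frontal cortex library (11 to 16.9 CPM), while the genotypes overlap for the other 8 receptors.

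The question put to the family was whether the lower Epha8 of Igf2enh-/- mice is shared by its relatives. In frontal cortex it was not detected in the 6 that could be tested. Epha8 ran from 11 to 16.9 CPM with a median of 14.5 in the 6 wild-type libraries, and from 6.94 to 9.83 CPM with a median of 7.94 in the 6 Igf2enh-/- libraries. All 6 Igf2enh-/- libraries lay below all 6 wild-type libraries, in a comparison where 1.31% of all 13936 tested genes had genotypes that did not overlap and 0.38% were called. The counts behind these values were 297 to 436 reads in wild-type and 180 to 246 reads in Igf2enh-/- libraries. The fitted log2 fold change (Igf2enh-/- over wild-type) was -0.79 (standard error 0.112), a level 1.73-fold lower, and only 7 of the 13936 genes tested had a lower estimate. Both sexes were low, with 8.83 ± 1.07 CPM (SD, n = 3) in Igf2enh-/- females and 7.6 ± 0.579 CPM (SD, n = 3) in males, against 14.8 ± 2.64 and 13.6 ± 2.97 CPM (SD, n = 3 each) in wild-type females and males. These are the libraries on which Epha8 was selected. Its rank, the lack of overlap and the low values of both sexes are thus descriptions only.

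Of the 9 receptors, 7 reached 1 CPM in every frontal cortex library and were tested there with the quasi-likelihood F-test of edgeR, with sex in the model and adjustment over all genes tested. Apart from Epha8, 0 of the other 6 passed an adjusted p of 0.05, where 0.38% of all tested genes did (53 genes, and 1877 at an unadjusted p under 0.05). The 53 calls became 8 to 99 when single libraries were left out. None of the 6 had an unadjusted p under 0.05 either, and edgeR's likelihood ratio test, DESeq2 and limma-voom called none of them. Their log2 fold changes lay between -0.08 and 0.09, with adjusted p between 0.445 and 0.909, and their 95% intervals together ran from -0.17 to 0.29.

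Epha4 ran from 266 to 310 CPM in wild-type (median 294) and from 255 to 298 CPM in Igf2enh-/- frontal cortex (median 270), and the genotypes overlapped. Its log2 fold change was -0.08 (95% interval -0.17 to 0.01, adjusted p = 0.445 in edgeR). Epha5, an ephrin-A receptor of forebrain neurons, ran from 127 to 165 CPM in wild-type (median 148) and from 144 to 167 CPM in Igf2enh-/- libraries (median 156), with a log2 fold change of 0.09 (95% interval -0.03 to 0.21). These 2 abundant receptors had the narrowest intervals of the family.

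Epha7, which can repel or attach cells depending on its splice form, ran from 69.1 to 107 CPM in wild-type (median 90.3) and from 87.9 to 98.2 CPM in Igf2enh-/- libraries (median 94). Its log2 fold change was 0.09 (95% interval -0.09 to 0.26). The wild-type spread enclosed the mutant values. Epha10 ran from 47.7 to 61 CPM (median 51) and from 51.1 to 63.2 CPM (median 53.3), with a log2 fold change of 0.07 (95% interval -0.06 to 0.19).

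Epha3, a high-affinity receptor of ephrin-A5, ran from 15.8 to 20.2 CPM in wild-type (median 17) and from 13.6 to 19.9 CPM in Igf2enh-/- libraries (median 18.8). Its log2 fold change was 0.03 (95% interval -0.15 to 0.22). Epha6 ran from 5.67 to 7.93 CPM (median 6.88) and from 6.36 to 8.39 CPM (median 7.29), with a log2 fold change of 0.09 (95% interval -0.12 to 0.29). It is the least abundant of the tested receptors.

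Epha1 and Epha2 fell under the filter in both regions and were fitted without it. Epha2 had 0.52 to 1.14 CPM in wild-type and 0.809 to 1.8 CPM in Igf2enh-/- frontal cortex, with a log2 fold change of 0.36 (95% interval -0.02 to 0.75, adjusted p = 0.608 in edgeR). Epha1 had 0 to 5 reads per frontal cortex library, and its interval of -1.51 to 0.90 does not exclude the size of the Epha8 difference.

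**Figure D2:**
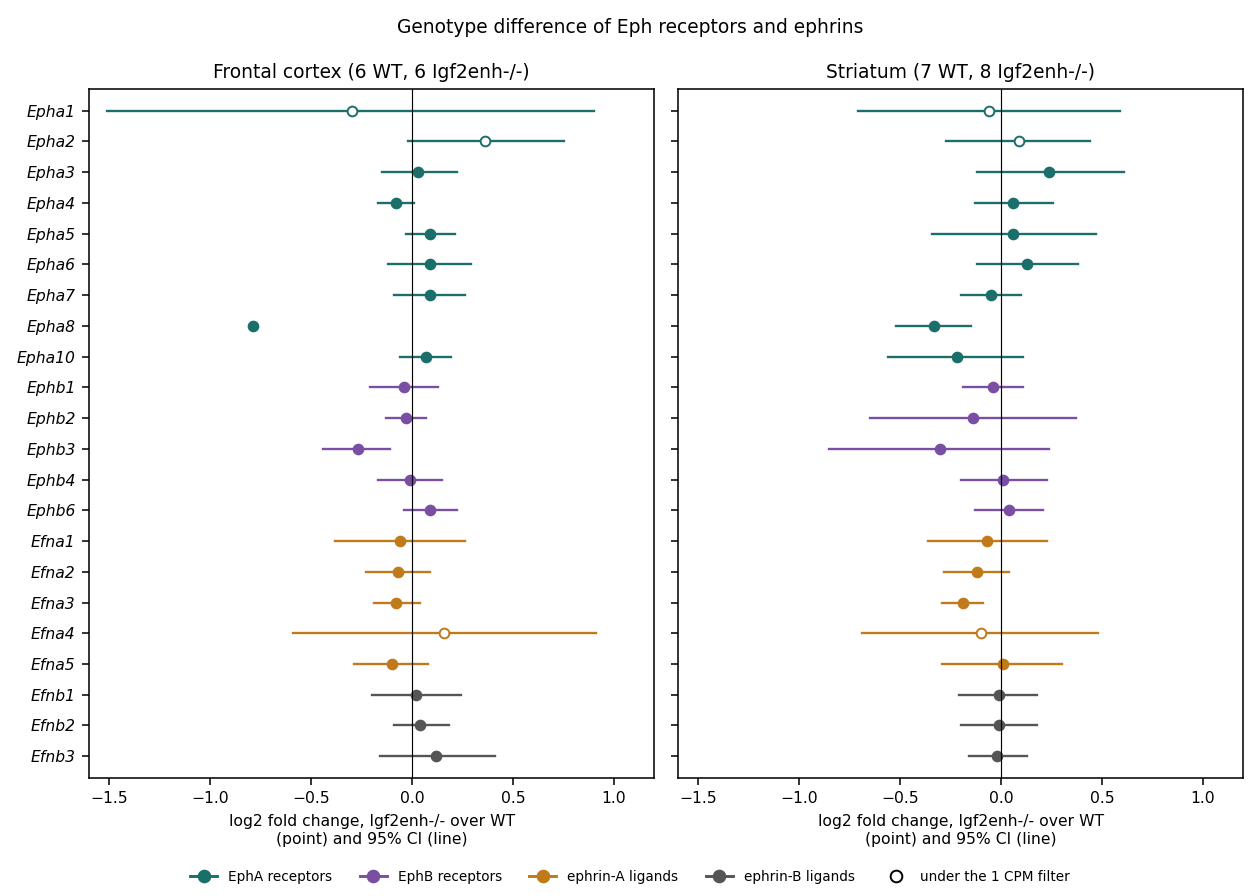
Log2 fold change (Igf2enh-/- over wild-type, points) with 95% confidence intervals (lines) of the EphA and EphB receptors and the ephrins, in frontal cortex (6 against 6 libraries) and striatum (7 against 8). Open points are genes under 1 CPM in a library of the region, and Epha8 in frontal cortex, on which the family was selected, has no interval. Epha8 lies at -0.79 in frontal cortex and -0.33 in striatum, and the other tested EphA receptors lie between -0.08 and 0.09 and between -0.22 and 0.24.

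In striatum the Epha8 values were also low in the mutants, but the difference did not pass the test. Epha8 ran from 23.1 to 34.9 CPM with a median of 27.4 in 7 wild-type libraries and from 20.5 to 25.6 CPM with a median of 23 in 8 Igf2enh-/- libraries. The groups overlapped: 6 of the 7 wild-type libraries lay above every Igf2enh-/- library, and 4 of the 8 Igf2enh-/- libraries lay below every wild-type library. The fitted log2 fold change was -0.33 (standard error 0.0870, 95% interval -0.52 to -0.15, unadjusted p = 0.00170, adjusted p = 0.209 in edgeR). In striatum 0 of the 7 tested receptors were called, and 0.036% of all genes were (5 of 13875, and 1394 at an unadjusted p under 0.05). DESeq2 gave Epha8 an adjusted p of 0.0467 at the same log2 fold change, in a fit that called 0.808% of all genes (112 of 13875). When single libraries were left out, the log2 fold change stayed between -0.37 and -0.28 and the adjusted p between 0.123 and 0.366 in edgeR. Oligodendrocyte markers were lower in 8 of 8 genes (median log2 -0.31, none called) in Igf2enh-/- striatum, with a summed level of 4790 to 10400 CPM in wild-type and 4960 to 6420 CPM in Igf2enh-/- libraries. Cortical projection neuron markers were lower in 8 of the 10 tested (median log2 -0.27, none called). The part of oligodendrocyte markers in the Epha8 difference was not tested. Since some mice may have given both regions, the striatal libraries may not be independent of those on which Epha8 was chosen.

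The other 6 striatal receptors had log2 fold changes between -0.22 and 0.24 and adjusted p between 0.697 and 0.943 in edgeR. Epha3 had the highest estimate, with 4.34 to 8.49 CPM in wild-type (median 5.15) and 5.25 to 9.82 CPM in Igf2enh-/- libraries (median 6.73), and its 95% interval of -0.12 to 0.61 held 0. Epha10 had the lowest apart from Epha8, with 22.2 to 43.1 CPM (median 25.6) and 17.3 to 33.6 CPM (median 24.3), at -0.22 (95% interval -0.56 to 0.11). Epha4 was at 0.06 (227 to 340 and 229 to 331 CPM), Epha5 at 0.06 (46.3 to 116 and 58.9 to 116 CPM), Epha6 at 0.13 (5.81 to 12.3 and 9.77 to 12.5 CPM) and Epha7 at -0.05 (68.5 to 106 and 81.9 to 91.7 CPM, wild-type range first). The genotypes overlapped for each of them. The striatal intervals of Epha3, Epha5 and Epha10 were wider than in frontal cortex, so a difference of the striatal Epha8 size is not excluded for Epha5 and Epha10.

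The difference between the genotype effects of the regions for Epha8 (striatum minus frontal cortex, on the log2 scale) was 0.46 (standard error 0.146). It is a description, since the frontal cortex libraries chose the gene. For the other 6 tested receptors this difference lay between -0.31 and 0.21, and 0 of them were called in edgeR (0% of all genes, with 418 genes and none of these 6 receptors at an unadjusted p under 0.05).

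Between the regions the family divided. Epha8 and Epha6 were higher in striatum, Epha3, Epha5 and Epha10 were higher in frontal cortex, and no difference was detected for Epha4 and Epha7. Of the 7 tested receptors 5 passed an adjusted p of 0.05 in edgeR, 2 higher and 3 lower in striatum, in a comparison where 78.3% of all 14397 genes passed (39.3% higher and 39% lower). A passed test is thus common in this comparison, and the size of the differences says more: the median absolute log2 difference was 0.92 over the 7 receptors and 0.25 over all tested genes. With wild-type libraries alone, without the mutants in which Epha8 is low, these medians were 0.82 and 0.26. Over both genotypes the median was 1.04 for the EphB receptors, 0.65 for the ephrin-B ligands and 0.21 for the tested ephrin-A ligands. Large differences were thus not particular to the EphA receptors.

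Among the tested receptors Epha8 had the largest striatal excess. It ran from 6.94 to 16.9 CPM over the 12 frontal cortex libraries (median 10.4) and from 20.5 to 34.9 CPM over the 15 striatal libraries (median 25.4), with no overlap, as for 27.1% of all tested genes. The log2 fold change (striatum over frontal cortex, mean of both genotypes) was 1.26 ± 0.0742 (SE), and edgeR gave an adjusted p of 6.82e-14. In wild-type libraries alone, which leave out the mutants in which Epha8 is low, it was 1.03 ± 0.104 (SE), and edgeR gave an adjusted p of 4.26e-09 (where 68.8% of genes passed), and in Igf2enh-/- libraries alone it was 1.49.

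Epha6 ran from 5.67 to 8.39 CPM in frontal cortex (median 6.88) and from 5.81 to 12.5 CPM in striatum (median 10.6). Its log2 fold change was 0.56 ± 0.0835 (SE), and edgeR gave an adjusted p of 1.06e-06. The overlap came from library 20, at 5.81 CPM, since the next striatal library had 9.77 CPM.

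Epha3 ran from 13.6 to 20.2 CPM in frontal cortex (median 18.2) and from 4.34 to 9.82 CPM in striatum (median 6.72), at a log2 fold change of -1.43 (standard error 0.106, adjusted p = 5.00e-12 in edgeR). Epha5 ran from 127 to 167 CPM (median 153) and from 46.3 to 116 CPM (median 78.1), at -0.92 (standard error 0.115, adjusted p = 6.07e-08 in edgeR). Epha10 ran from 47.7 to 63.2 CPM (median 52.8) and from 17.3 to 43.1 CPM (median 24.5), at -0.97 (standard error 0.103, adjusted p = 3.57e-09 in edgeR). For these 3 receptors too the regions did not overlap.

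Epha4 and Epha7 overlapped almost wholly between the regions. Epha4 had 255 to 310 CPM in frontal cortex and 227 to 340 CPM in striatum, at 0.04 (95% interval -0.08 to 0.15), and Epha7 had 69.1 to 107 CPM and 68.5 to 106 CPM, at -0.02 (95% interval -0.14 to 0.10). Without the filter, Epha2 was at 0.18 (adjusted p = 0.322 in edgeR) and Epha1 at 1.08 (adjusted p = 0.00335 in edgeR, where 41.3% of genes passed), from 0 to 5 reads per frontal cortex library and 3 to 9 reads per striatal library.

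**Figure D3:**
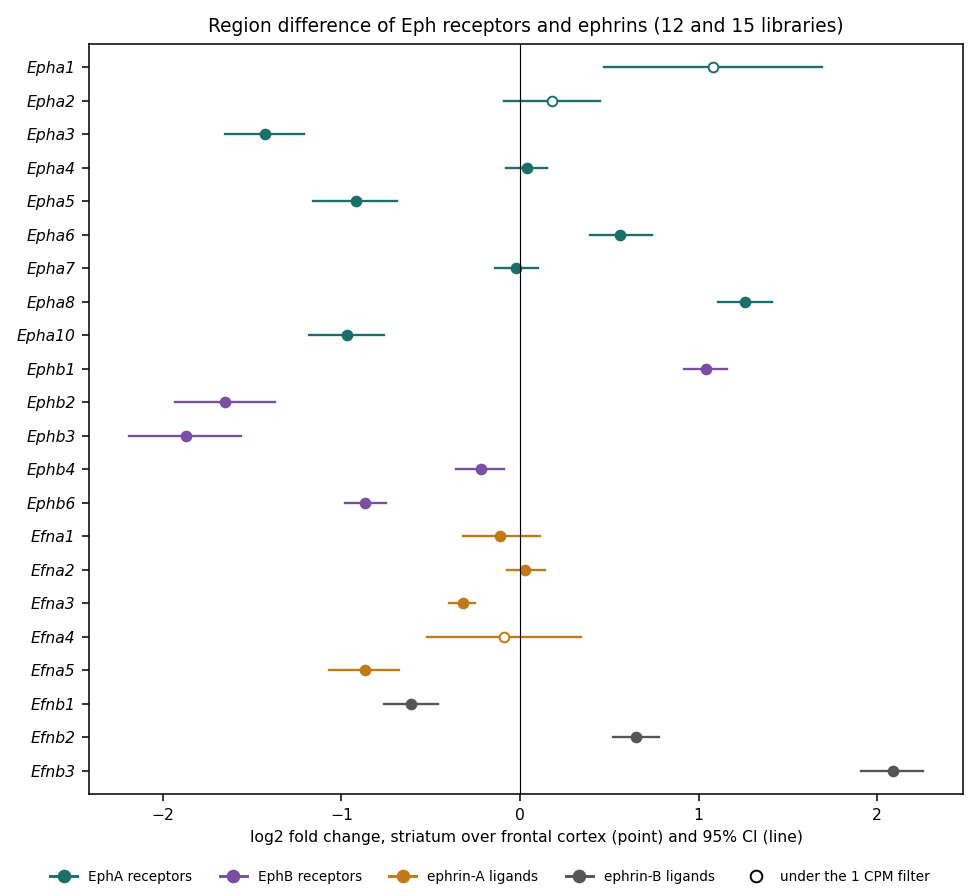
Log2 fold change (striatum over frontal cortex, points) with 95% confidence intervals (lines) for the EphA and EphB receptors and the ephrins, over 12 frontal cortex and 15 striatal libraries, with open points for genes under the filter. Epha8 (1.26) and Epha6 (0.56) lie to the right, Epha3 (-1.43), Epha10 (-0.97) and Epha5 (-0.92) to the left, and Efnb3 reaches 2.09.

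The striatal levels of the frontal cortex-rich receptors moved with the cortical marker sum of the library. The 5 striatal libraries with the highest sums (945 to 1680 CPM, libraries 20, 23, 16, 26 and 19, of which 3 were wild-type and 2 Igf2enh-/-) were set beside the 5 with the lowest (461 to 680 CPM, also 3 wild-type and 2 Igf2enh-/-). Epha10 had 32.2 to 43.1 CPM in the former and 20 to 24 CPM in the latter. Epha3 had 6.92 to 9.82 CPM against 4.34 to 6.72 CPM, and Epha5 had 80.5 to 116 CPM against 46.3 to 74.6 CPM. The sets did not overlap for these 3 receptors, nor for Epha4 in the opposite direction. This lack of overlap, in either direction, was seen for 16% of the genes tested in striatum.

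Epha4 went the other way, also without overlap. It had 227 to 285 CPM in the libraries of high cortical markers and 305 to 340 CPM in those of low. Epha6 (5.81 to 12.1 against 9.87 to 12.3 CPM), Epha7 (68.5 to 99.6 against 84.8 to 106 CPM) and Epha8 (20.5 to 27.4 against 22.3 to 34.9 CPM) overlapped. The Epha8 medians were 23.1 CPM at high and 27.3 CPM at low cortical markers, over sets that mix the genotypes. Its wild-type values were 23.1, 26.3 and 27.4 CPM against 34.6, 34.9 and 27.3 CPM. Its Igf2enh-/- values were 20.5 and 20.5 CPM against 25.6 and 22.3 CPM, without overlap. The part of tissue makeup in the Epha8 level was not tested. The mean log2 CPM of the cortical markers, rather than their sum, was added as a term to the striatal fit after the data were seen. The Epha8 log2 fold change between genotypes was then -0.30 (adjusted p = 0.0736 in edgeR), and 0 of the 7 receptors were called. Without libraries 15 and 20 it was -0.38 (adjusted p = 0.163 in edgeR). The part of cortical tissue in the striatal differences between libraries was not tested further. In frontal cortex the cortical marker sum was 3020 to 3120 CPM in wild-type and 2850 to 3220 CPM in Igf2enh-/- libraries. Of the marker lists, meningeal fibroblast genes were higher in 9 of 10 (median log2 0.24) and astrocyte genes in 7 of 8 (0.03) in Igf2enh-/- frontal cortex. Oligodendrocyte genes were lower in 8 of 8 (median log2 -0.19) and GABAergic interneuron genes in 7 of 8 (-0.07). Of all tested genes 50.4% were higher and 49.6% lower. The summed oligodendrocyte level was 1570 to 2080 CPM in wild-type and 972 to 2080 CPM in Igf2enh-/- libraries, lowest in library 1. None of these markers were called, and their part in the Epha8 difference was not tested. Of the 7 olfactory bulb markers, Eomes and Tbx21, under the filter, were called higher in Igf2enh-/- frontal cortex in the unfiltered fit (adjusted p = 1.89e-05 and 0.00188; that fit called 1.39% of all genes). Library 9 held 179 Eomes reads, against 0 to 1 in each other frontal cortex library, and 98 Tbx21 reads, against 1 to 7. The summed olfactory bulb level was 79 to 95.8 CPM in wild-type and 61.7 to 117 CPM in Igf2enh-/- frontal cortex, highest in library 9. The part of olfactory bulb markers in the Epha8 difference was not tested.

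**Figure D4:**
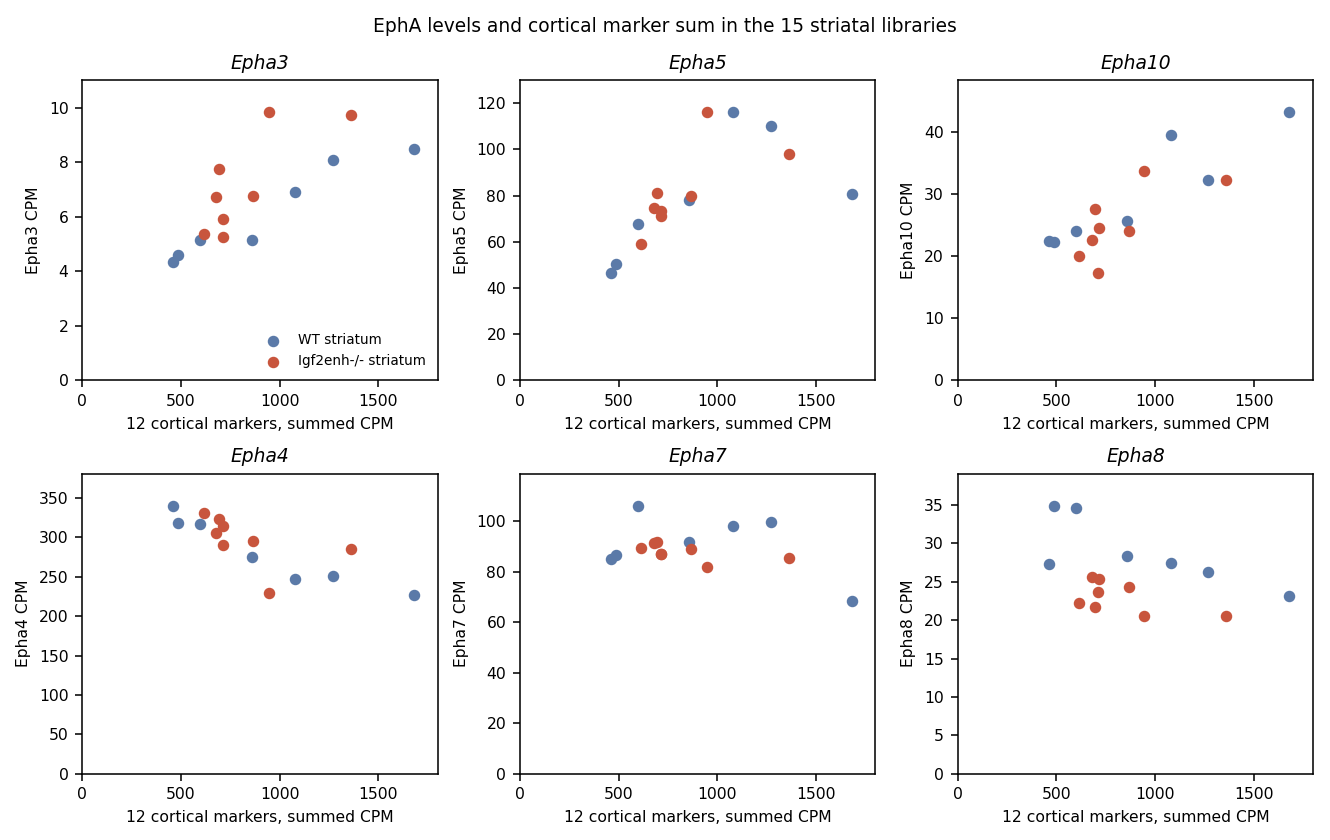
CPM of 6 EphA receptors (vertical axes from 0) against the summed CPM of 12 cortical projection neuron markers (horizontal axis) in the 15 striatal libraries, wild-type in blue and Igf2enh-/- in red. Epha3, Epha5 and Epha10 are higher in the libraries with more cortical marker RNA (Epha10 reaches 43.1 CPM in library 20) and Epha4 is lower there (227 CPM).

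Sex made no detected difference in the family. In edgeR 0 of the 7 tested receptors were called between males and females in frontal cortex (0.0431% of all genes called, and 1054 at an unadjusted p under 0.05) or in striatum (0.0432%, and 1496). The log2 fold changes (male over female) lay between -0.17 and 0.08 in frontal cortex and between -0.09 and 0.30 in striatum. For the difference of the genotype effect between the sexes, 0 of the 7 were called in frontal cortex (0.0215% of all genes, and 887 unadjusted) and 0 in striatum (0%, and 355 unadjusted). In frontal cortex Epha5 (-0.26), Epha6 (-0.38) and Epha7 (-0.35) had unadjusted p of 0.0146, 0.0397 and 0.0231 in edgeR, and each had an adjusted p of 0.763. Without the filter on low counts Epha7 passed (adjusted p = 0.0125 in edgeR), in a fit where 0.938% of genes passed. In Epha6, for example, Igf2enh-/- females had 8.07 to 8.39 CPM and males 6.36 to 6.51 CPM, while wild-type females had 5.67 to 7.93 CPM and males 6.15 to 7.74 CPM (n = 3 each). For Epha8 the sex difference of the genotype effect was -0.09 in frontal cortex and 0.04 in striatum.

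The relatives and partners of the EphA receptors were examined next. Of the 5 EphB receptors and 8 ephrins, 12 were tested in each region (Efna4 was under the filter), and 0 were called between the genotypes in either (0.38% and 0.036% of all tested genes). A count of 0 of 12 is near that background. Their log2 fold changes lay between -0.27 and 0.12 in frontal cortex and between -0.30 and 0.04 in striatum. The smallest adjusted p in frontal cortex was that of Ephb3, a receptor of ephrin-B ligands, which had 38.4 to 49.9 CPM in wild-type (median 44.9) and 31.6 to 44.1 CPM in Igf2enh-/- libraries (median 37.7), at -0.27 (95% interval -0.44 to -0.11, adjusted p = 0.136 in edgeR). In striatum it was that of Efna3, an ephrin-A ligand of neurons, with 37.1 to 44.5 CPM (median 41.4) and 32.5 to 39.8 CPM (median 37.3), at -0.19 (95% interval -0.29 to -0.09, adjusted p = 0.174 in edgeR). Both pairs of groups overlapped. The 4 tested ephrin-A ligands, which are ligands of EphA8, lay between -0.10 and -0.06 in frontal cortex.

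Between the regions 10 of these 12 genes passed in edgeR, 3 higher and 7 lower in striatum, close to the 78.3% of all genes that passed (39.3% higher and 39% lower). Efnb3, a transmembrane ligand that acts at axons and synapses, was at 2.09 (standard error 0.0834), from 36.5 ± 4.23 CPM (SD, n = 6) in wild-type frontal cortex to 162 ± 20.1 CPM (SD, n = 7) in wild-type striatum. Ephb1 was at 1.04 and Efnb2 at 0.65. Efna5, a ligand of Epha3 and Epha5, was at -0.87, Efna3 at -0.32 and Efnb1 at -0.61. Ephb3 (-1.87), Ephb2 (-1.65), Ephb6 (-0.87), which lacks kinase activity, and Ephb4 (-0.22) were lower in striatum. Efna1 (-0.11) and Efna2 (0.03) did not pass.

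Downstream, 26 genes that carry or end Eph signals were listed, among them Ngef (ephexin, an exchange factor for small GTPases that EphA receptors activate), Chn1 (a brake on Rac below EphA4) and Adam10 (a protease that cuts ephrins). Between the genotypes 0 of 26 were called in frontal cortex and 0 of 25 tested in striatum in edgeR, again near the background of 0.38% and 0.036%. Those of smallest p were Fyn, a Src-family kinase, at -0.29 (adjusted p = 0.101 in edgeR), and Anks1, an adaptor of EphA8 and other Eph receptors, at -0.10 (adjusted p = 0.373) in frontal cortex. In striatum they were Vav3, an exchange factor for small GTPases, at 0.30 (adjusted p = 0.248 in edgeR), and Fyn at -0.29 (adjusted p = 0.331). The frontal cortex difference of Fyn lay in the wild-type males, at 178 to 183 CPM. Wild-type females had 123 to 128 CPM there, and Igf2enh-/- libraries 118 to 129 CPM. The high striatal values were also of wild-type males, at 157, 161 and 178 CPM, while the wild-type male library 26 had 109 CPM. Ngef was at -0.10 in frontal cortex and 0.03 in striatum. Between the regions 22 of the 26 passed, 11 in each direction, close to the 78.3% of all genes, and the median absolute log2 difference of 0.24 was next to the 0.25 of all tested genes. Among them Arhgef15 (0.87), Anks1b (0.78), Ngef (0.71), Yes1 (0.56), Tiam1 (0.54), Vav3 (0.52), Cbl (0.30), Pik3cg (0.26), Rock1 (0.14) and Rhoa (0.07) were higher in striatum. Mmp9 (-1.58), Vav2 (-0.78), Nck2 (-0.61), Src (-0.60), Chn1 (-0.30), Fyn (-0.22), Grb2 (-0.17), Anks1 (-0.14), Cdk5 (-0.13), Rock2 (-0.11) and Adam10 (-0.07) were lower.

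The genes around Epha8 on chromosome 4 were looked at for the same genotype difference. Within 500 kb there are 29 annotated RefSeq genes in GRCm38, of which 21 had a row besides Epha8. Of these 9 were tested in frontal cortex and 10 in striatum, and 0 were called between the genotypes in edgeR, where 0.38% and 0.036% of all genes were, so that a count of 0 among so few genes is near the background. Log2 fold changes lay between -0.18 and 0.28 in frontal cortex and between -0.25 and 0.11 in striatum. The nearest, Zbtb40 at 22873 bp, was at 0.07 in frontal cortex and 0.11 in striatum. The complement genes of microglia on the other side, C1qa at 30575 bp, C1qc at 36483 bp and C1qb at 43219 bp, were at 0.28, 0.18 and 0.20 in frontal cortex, with adjusted p of 0.144, 0.264 and 0.316 in edgeR. The list of 9 microglia markers, which includes them, was higher in 6 and lower in 3 there (median log2 0.12, none called). Away from chromosome 4, its marker Aif1 was at 0.30 and P2ry12 at -0.13. The part of microglia in the complement values was not tested. C1qa had 17.1 ± 1.55 CPM (SD, n = 6) in wild-type and 20.8 ± 2.32 CPM (SD, n = 6) in Igf2enh-/- frontal cortex. Ephb2, at 93093 bp, was at -0.03 in frontal cortex and -0.14 in striatum.

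**Figure D5:**
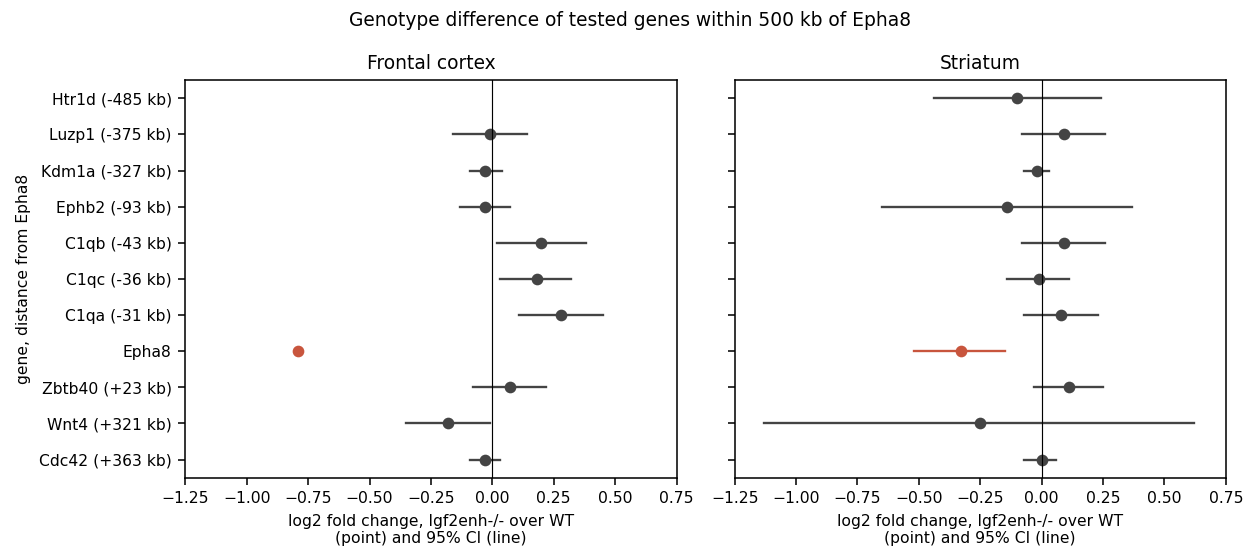
Log2 fold change (Igf2enh-/- over wild-type, points) with 95% confidence intervals (lines) of the tested genes within 500 kb of Epha8, in order along chromosome 4 with their distance from Epha8 in kb, with no interval for Epha8 in frontal cortex. Epha8 (red) lies at -0.79 in frontal cortex and -0.33 in striatum, and the other genes lie between -0.18 and 0.28 and between -0.25 and 0.11.

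Among 13413 genes tested in both regions, Cfap20, a ciliary protein gene, tracked Epha8 most closely from library to library. After the mean of each of the 4 groups was subtracted from log2 CPM, Pearson's r over the 27 libraries was 0.82 (0.75 within frontal cortex and 0.92 within striatum). In the striatal library with the most Epha8, library 14 at 34.9 CPM, Cfap20 had 51.8 CPM, and in library 24 (Epha8 at 34.6 CPM) it had 53.2 CPM, its 2 highest values. Mfap3 (0.72), Tmem164 (0.71), Smpdl3b (0.71) and ENSMUSG00000097464 (0.70) came next. Within the family Epha3 was at -0.60 (-0.63 within frontal cortex and -0.69 within striatum), Epha5 at -0.40 (-0.47 and -0.49) and Epha6 at 0.30 (0.11 and 0.46). The other receptors had opposite signs in the regions, so that their pooled values describe neither: Epha4 was at -0.51 within frontal cortex and 0.63 within striatum, Epha7 at -0.62 and 0.53, Epha10 at 0.57 and -0.70, Epha2 at 0.61 and -0.34 and Epha1 at -0.28 and 0.19. The correlations are descriptions over libraries that also share depth and tissue makeup. Cfap20 itself did not differ between genotypes beyond its spread, at -0.03 in frontal cortex and -0.03 in striatum.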

How the data were processed

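The 27 mouse brain libraries were sequenced as single-end 75 bp reads. After trimming (Trim Galore 0.5.0) and STAR alignment to GRCm38 with GENCODE vM15, the authors deposited raw counts for 52636 gene identifiers. The strand setting of the counting is not given in the sources used here, so reads of overlapping genes may be shared. The count tables held 0 columns of other samples.

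Symbols were matched by Ensembl identifier for 32688 identifiers (2907 updated by RefSeq), and exon lengths for RPKM came from GENCODE vM1 on NCBIM37. A gene needed 1 CPM or more in all libraries of a region (of at least 1 region, for the comparison of regions). Counts were scaled by TMM and tested with edgeR 4.0.16 in R 4.3.3 (glmQLFit, glmQLFTest; genotype and sex; Benjamini-Hochberg over all genes). The study's methods name glmLRT, run here as an alternative beside DESeq2 1.42.0, limma-voom (limma 3.58.1), other scalings and filters and leaving out each library. Regions were joined in 1 model that treats libraries as independent mice, and p-values measure the spread between libraries. In a simulation, 200 genes were shifted by 0.80 (log2). Of these 97% were recovered in frontal cortex and 92.5% in striatum, with 11 and 6 false calls. With 200 planted changes the adjusted threshold is easier to pass than in the data, where 53 and 5 genes were called. The recovered shares are thus not the power for a single receptor in these data. Distances of neighbours and promoter windows are RefSeq's on GRCm38.p6. Named genes were all EphA, EphB and ephrin genes, effectors that passed or had the 2 smallest p per genotype comparison, the neighbours of Epha8 within 500 kb and the 5 genes most like it. The result of 1 listed effector is left out of the text. Members and lists were chosen with earlier results of these data known. Python 3.11.15 with matplotlib 3.10.9 drew the figures.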

Additional observations from a re-analysis of the deposited data

Results flagged for a closer look

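Among the 36 sets of EphA values within a group, 2 had a library far from the others by Dixon's test on log2 values, a test that picks about 1 set in 20 by chance. Epha6 in wild-type striatum was lowest in library 20 at 5.81 CPM, with a gap of 0.702 of the group's range (critical value 0.568). That library also had the highest cortical marker sum (1680 CPM) and the lowest medium spiny neuron marker sum (3800 CPM) of the striatum, and their part in it was not tested. Epha4 in Igf2enh-/- striatum was lowest in library 19 at 229 CPM, with a gap of 0.594 of the range (critical value 0.526), in a library with 945 CPM of cortical markers. Igf2 in Igf2enh-/- striatum was highest in library 15 at 259 CPM, with a gap of 0.832 of the range (critical value 0.526), in the library with 4620 CPM of choroid plexus markers. EphA values of library 15 lay within the ranges of the other striatal libraries, except Epha10, at 17.3 CPM the lowest of the striatum.

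The fitted genotype difference of Fyn (chr10:39369743-39565381) in frontal cortex differed between the sexes, with an interaction of -0.50 on the log2 scale (adjusted p = 0.00772 in edgeR, standard error 0.0617, n = 3 for each sex and genotype). Wild-type males had 183, 178 and 180 CPM, wild-type females 126, 128 and 123 CPM, Igf2enh-/- males 122, 129 and 122 CPM and Igf2enh-/- females 118, 122 and 129 CPM. In striatum the interaction was -0.43 (adjusted p = 1.00 in edgeR). There 3 of the 4 wild-type males had 157, 161 and 178 CPM, and the fourth, library 26, had 109 CPM, within the range of 102 to 112 CPM of the Igf2enh-/- libraries. Whether the high values go with sex or with other differences between the mice was not tested.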

How the results depend on the processing

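Of 1656 values and counts recomputed under the planned and added alternatives, 1652 stayed on their side of the threshold (a count, within 1.5 times). The tally includes the frontal cortex fits of Epha8, on which the family was selected, and many overlapping fits that each left out a single library. It describes these fits and is no measure of support for the Epha8 difference. Among the single values 83 took the other sign or 0.00, 0 of them called in either fit. DESeq2, which called 0.808% of all genes there, called 1 striatal EphA receptor between genotypes where edgeR called 0, namely Epha8 (-0.33, adjusted p = 0.0467). Without a filter on low counts, 1 receptor was called for the sex difference of the genotype effect in frontal cortex where 0 were with it, namely Epha7 (-0.35, adjusted p = 0.0125 in edgeR). The cause was not tested. The Epha7 values lay between -0.49 and -0.26 when each library was left out, with adjusted p from 0.384 to 0.995. Over all genes the counts of genotype calls depended on the tool and on single libraries. In frontal cortex edgeR's quasi-likelihood test called 53, its likelihood ratio test 232, DESeq2 242 and the unfiltered fit 459, and in striatum 5, 56, 112 and 10. The 53 calls became 99 without library 1, 84 without 7, 32 without 11, 17 without 12, 15 without 8, 11 without 6, 10 without 4 or 9 and 8 without 10. The 5 striatal calls became 8 without library 23 and 3 without 18, 19, 21, 24, 25 or 27. In striatum filterByExpr gave 13 calls, the cortical marker term 68, and limma-voom and the model without sex 3 each. The region calls of Epha3, Epha5, Epha6, Epha8 and Epha10 held under all 12 alternatives and all 27 fits that left out a library. The sign of the uncalled Epha7 and Epha4 region estimates changed in some of these. No paired analysis was possible because the groups share no library number in the labels. Depth limits Epha1, which at 0 to 5 reads per frontal cortex library allows no statement on a genotype difference of the size seen in Epha8.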
